A study of Mus musculus with 24 samples.

Results

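The Myc-Max network is a family of transcription factors that share the partner Max and read the same DNA element, the E-box. Myc, Mycn and Mycl1 pair with Max to raise transcription of growth genes. Mxd1, Mxd3, Mxd4 and Mxi1 (the Mad proteins), together with Mnt and Mga, compete for the same partner and sites and recruit repressors, and Mxd genes are known for their expression in cells that have stopped dividing. The smooth muscle of an adult aorta is largely such a tissue.

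The data were RNA-seq counts from the thoracic aorta of 24 mice, all C57BL/6 wild-type adult males of 10 to 12 weeks, collected at zeitgeber time 11, an hour before lights off. A group of 8 ate plain chow (control), 8 ate chow with celecoxib at 100 mg/kg/day and 8 ate chow with rofecoxib at 50 mg/kg/day, in each case for 3 weeks. Both drugs inhibit cyclooxygenase-2, the inducible enzyme of prostanoid synthesis, and their doses differed. Whole vessels were homogenised, so fewer cells of a type and less RNA per cell cannot be told apart in any value below. Deposited totals lay between 21652432 and 21687906 counts per library, and 14451 of 25941 genes passed the filter on low counts. Smooth muscle markers summed to between 34818 and 52674 CPM (a gene's count over the library's scaled total) in every library, while T cell markers reached at most 3.88 CPM and B cell markers at most 5.65 CPM. Control 6 stood apart by its adipocyte markers (4743 CPM) and brown adipocyte markers (1548 CPM), and rofecoxib 2 by its cardiac muscle markers (524 CPM).

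All 10 network genes were found in the table by symbol, and 8 of them passed the filter. Mycn and Mxd3, with 1 to 13 counts per library, did not. Mxd4 was chosen by its higher level with celecoxib in these same libraries, so its celecoxib values are a description and carry no test. Its rofecoxib contrast, which shares the control libraries, and the other 7 genes were tested in edgeR's quasi-likelihood fit over all 14451 genes, with Benjamini-Hochberg adjustment and a threshold of 0.05. Fold changes are on the log2 scale and are followed by their standard error (SE).

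The E-box that Myc and Mxd dimers with Max prefer reads CACGTG, which is its own reverse complement, so 1 strand covers both. RefSeq promoter windows (GRCm38.p6, 250 bases before to 50 after a start site) existed for 9 of the 10 genes. The element lay in the windows of Mxd4, Mnt and Max, 33.3% of these 9 genes, against 8.09% of the 27025 genes with a window. It began 219 bases before the start site in Mxd4, 123 before it in Mnt and 3 before it in Max. Unlike those of Mxd4 and Mnt, the first transcribed bases of the Max window were in no GENCODE M21 transcript of the gene. The start site and distance for Max are therefore less certain. The windows of Mxd4 (chr5:34187661-34187960, minus strand), Mnt (chr11:74830674-74830973, plus strand) and Max (chr12:76962199-76962498, minus strand) are shown because they hold the network's own element, and that of Mga (chr2:119896978-119897277, plus strand) because Mga was the member called with rofecoxib and its window lacks these letters. Capitals mark the element, and a match describes the letters only.
Mxd4: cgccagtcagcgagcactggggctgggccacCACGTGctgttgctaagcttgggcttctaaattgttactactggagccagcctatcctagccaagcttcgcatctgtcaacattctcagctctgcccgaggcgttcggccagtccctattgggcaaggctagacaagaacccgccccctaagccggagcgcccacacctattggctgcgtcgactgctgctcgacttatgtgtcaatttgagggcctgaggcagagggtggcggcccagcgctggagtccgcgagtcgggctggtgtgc
Mnt: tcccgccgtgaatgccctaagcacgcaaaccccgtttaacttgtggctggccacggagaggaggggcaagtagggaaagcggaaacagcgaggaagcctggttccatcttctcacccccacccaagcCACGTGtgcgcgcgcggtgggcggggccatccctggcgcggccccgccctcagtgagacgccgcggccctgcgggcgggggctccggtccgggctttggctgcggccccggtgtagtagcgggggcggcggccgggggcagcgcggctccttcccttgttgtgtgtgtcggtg
Max: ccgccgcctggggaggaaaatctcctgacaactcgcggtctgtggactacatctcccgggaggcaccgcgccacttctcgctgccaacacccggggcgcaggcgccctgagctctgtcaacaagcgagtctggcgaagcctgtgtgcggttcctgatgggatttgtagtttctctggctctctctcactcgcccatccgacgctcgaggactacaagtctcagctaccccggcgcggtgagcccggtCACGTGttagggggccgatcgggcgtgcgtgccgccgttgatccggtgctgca
Mga: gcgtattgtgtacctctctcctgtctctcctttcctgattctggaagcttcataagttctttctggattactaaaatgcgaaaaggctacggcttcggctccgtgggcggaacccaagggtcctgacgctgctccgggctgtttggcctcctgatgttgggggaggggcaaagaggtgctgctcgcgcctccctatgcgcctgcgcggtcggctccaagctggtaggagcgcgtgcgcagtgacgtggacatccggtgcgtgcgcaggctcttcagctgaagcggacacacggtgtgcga

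Mxd4 (ENSMUSG00000037235, mm9 chr5:34516334-34530571) was the most abundant of the 10 genes and the only one whose celecoxib libraries all lay above every control and every rofecoxib library. The 8 control libraries, numbered 1 to 8, read 239.5, 216, 235, 245, 251, 229, 260.4 and 216 CPM. The celecoxib libraries read 279.8, 274, 294, 266, 314, 295, 262 and 307 CPM. The rofecoxib libraries read 242, 239, 232, 235, 199, 221, 233 and 236 CPM. Celecoxib and control came close at 1 point only, where celecoxib 7 at 262 CPM lay next to control 7 at 260.4 CPM. Control and rofecoxib libraries overlapped, and rofecoxib 5 was the lowest of all 24.

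In group means, Mxd4 stood at 236 ± 15.8 CPM in control (SD, n = 8), 286 ± 18.9 in celecoxib and 229 ± 13.7 in rofecoxib. The celecoxib level was 1.21-fold that of control, a log2 fold change of 0.28 ± 0.05 (SE), and 1.25-fold that of rofecoxib, 0.32 ± 0.05. Rofecoxib against control gave −0.04 ± 0.05 with an adjusted p of 0.594 in edgeR's test. The 95% interval of that difference ran from −0.14 to 0.06. Under the 36 alternative settings the celecoxib value against control stayed between 0.25 and 0.30, while that against rofecoxib ranged from 0.21, with GC correction, to 0.34.

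**Figure D1:**
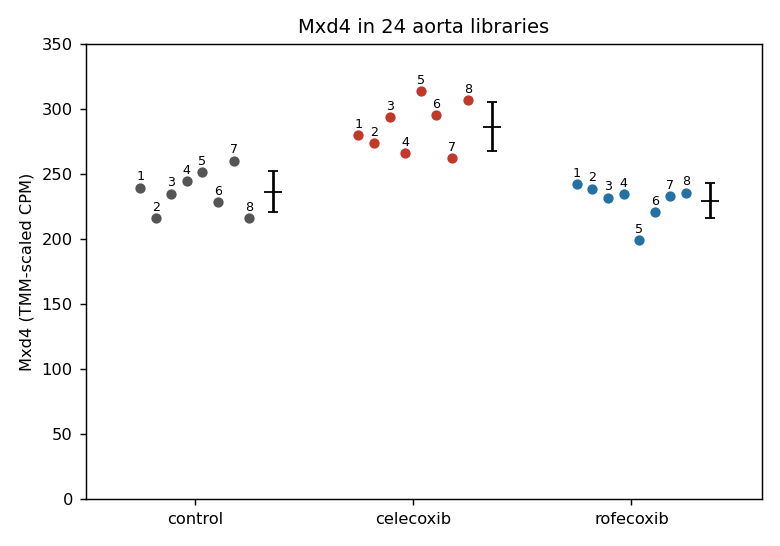
Mxd4 level by library. Each point is 1 library (TMM-scaled CPM, axis from 0), grouped as control, celecoxib and rofecoxib, 8 each; bars give mean ± SD. The celecoxib points, from 262 to 314 CPM, lie above all the others, and the control and rofecoxib points overlap.

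Cell type content was read beside the Mxd4 values. Summed smooth muscle markers ran from 34818 to 47598 CPM in control, from 42366 to 51987 in celecoxib and from 43931 to 52674 in rofecoxib, so they were high in both drug groups. Skeletal muscle markers were near the floor in every group, from 6.10 to 10.5 CPM in control, 8.27 to 14.7 in celecoxib and 9.44 to 17.3 in rofecoxib. Fibroblast markers reached 6426 CPM in control, 6739 in celecoxib and 4892 in rofecoxib. Once group means were subtracted, none of 13 measures (12 cell type scores and a GC slope) had an adjusted permutation p under 0.05 with Mxd4 over the 24 libraries. Scores averaged only markers that passed the filter, 1 of 5 for T cell, 3 of 5 for B cell and 5 of 6 for red blood cell. The T cell score was therefore Lck alone, a gene near the floor. The strongest relations were r = −0.58 with the T cell score, −0.55 with B cell and −0.55 with red blood cell. Their permutation p were 0.00717, 0.00675 and 0.00904, each 0.1175 when adjusted over 104 relations. Without the libraries farthest out in each score, r was −0.51, −0.36 and −0.40. Rofecoxib 5, the lowest library in Mxd4, had the highest red blood cell markers (694 CPM) and T cell markers (3.88 CPM), each summed over the whole marker list. The part of cell content in the Mxd4 values was not tested.

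Other members of the network were less abundant, and most were not called. The share of all genes called was 1.41% for celecoxib against control (0.913% higher and 0.498% lower), 5.3% for rofecoxib against control (2.43% higher and 2.87% lower) and 22.7% for celecoxib against rofecoxib (11.5% higher and 11.2% lower). Of the 8 tested members, 1 was called in the first comparison (Mxd4, by the choice itself), 1 in the second (Mga) and 2 in the third (Mxd4 and Mnt), all of them higher in the group named first. Groups without overlap occurred in 0.298%, 0.567% and 1.67% of all genes for these 3 comparisons, and among the members in Mxd4 alone, in the contrasts that hold celecoxib. Counts this small, with Mxd4 chosen, are not read as a property of the network.

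**Figure D2:**
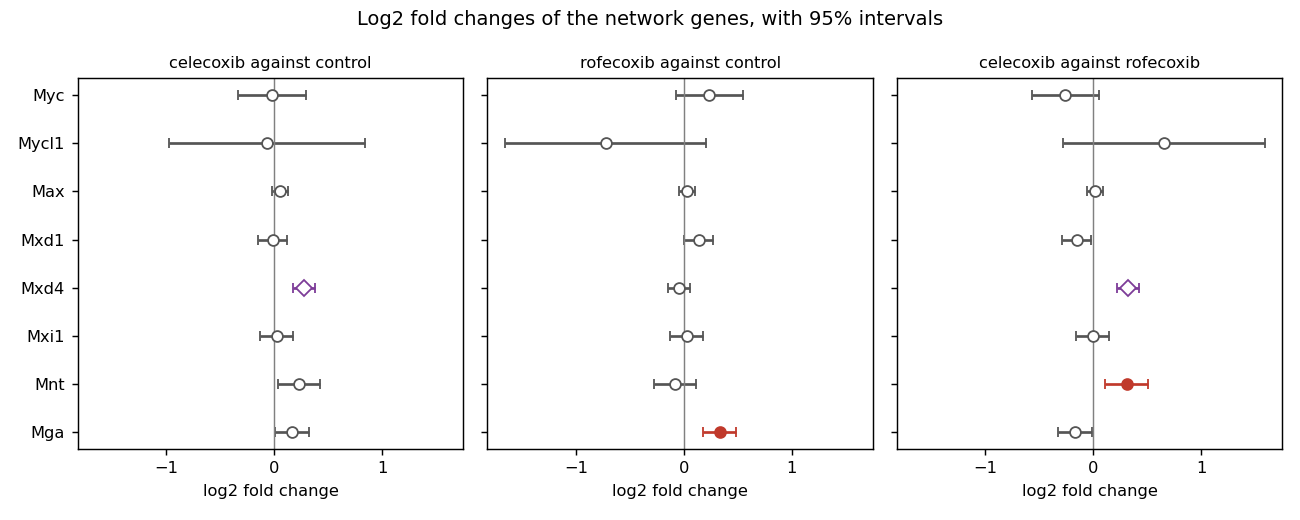
Log2 fold changes of the 8 tested members in the 3 comparisons. Points are edgeR estimates with 95% intervals; filled red points passed an adjusted p of 0.05, open grey points did not, and open purple diamonds are Mxd4 in contrasts with celecoxib, shown with no test. Mga with rofecoxib and Mnt between the drugs are the red points.

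Max, the shared partner, varied least. Its level was 70.9 ± 3.35 CPM in control, 73.4 ± 3.38 in celecoxib and 72.6 ± 2.69 in rofecoxib (SD, n = 8 each), with a range over all libraries of 68.2 to 78.7. Its log2 fold changes were 0.05 ± 0.04 with celecoxib and 0.03 ± 0.04 with rofecoxib, adjusted p 0.471 and 0.566 in edgeR. The 95% intervals in this fit were −0.02 to 0.13 and −0.04 to 0.11.

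Among the activators, Myc itself was low. It read 4.98 ± 1.43 CPM in control, 4.90 ± 1.23 in celecoxib and 5.87 ± 0.656 in rofecoxib, and all 8 rofecoxib libraries lay above the control mean but none above the highest control, 7.83 CPM. Rofecoxib against control was 0.24 ± 0.15 on the log2 scale, adjusted p 0.309 in edgeR (0.37 without control 2, and not called under any of the 36 alternatives), and celecoxib against control was −0.02 ± 0.15, adjusted p 0.953. Mycl1, the relative first found in small cell lung cancer, spread widely, from 0.424 to 5.55 CPM in control, 0.788 to 3.36 in celecoxib and 0.480 to 2.59 in rofecoxib. Its rofecoxib value of −0.73 ± 0.45 had an adjusted p of 0.303 and became −0.33 without control 6, the library with the most adipocyte signal.

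Mycl1 followed the adipocyte markers across libraries. After group means were subtracted, its log2 CPM correlated with the white and general adipocyte score with Pearson r = 0.72 and Spearman rho = 0.60 over 24 libraries. The permutation p was 0.00052 and 0.00488, and 0.0215 and 0.169 when adjusted over the 104 relations computed (8 genes by 13 measures). Without control 4 and control 6, the libraries farthest out in that score, r was 0.55. The relation was strong within control and rofecoxib (r = 0.82 and 0.88) and near 0 within celecoxib (r = 0.05, n = 8 each). Mycn, the neural and embryonic relative, had group means of 0.270, 0.309 and 0.258 CPM, at which depth no difference between groups was detectable.

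Of the other Mad genes, Mxd1, which rises in differentiating blood and skin cells, read 35.9 ± 4.45 CPM in control, 35.5 ± 1.78 in celecoxib and 39.5 ± 3.35 in rofecoxib. Rofecoxib against control was 0.14 ± 0.07, adjusted p 0.180 in edgeR, and celecoxib against rofecoxib was −0.15 ± 0.07, adjusted p 0.0935. The second difference passed the threshold in 4 of 36 alternatives: without control 6 (adjusted p 0.0495), without control 6 and rofecoxib 2 (0.044), with the brown adipocyte score (0.043) and when only the 2 drug groups were fitted (0.0389). Over all 36 the value ran from −0.18 to −0.07, with adjusted p from edgeR or DESeq2 of up to 0.729. Mxi1, also known as Mad2, was level at 44.0 ± 3.18, 44.7 ± 5.94 and 44.9 ± 4.98 CPM. Mxd3, an S-phase member of the family, had 0.311, 0.238 and 0.265 CPM, and its gene overlaps Prelid1, whose mean count was 2017, so its few counts are uncertain.

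Mnt (ENSMUSG00000000282, mm9 chr11:74644220-74659429), the broadly expressed antagonist of Myc, was higher with celecoxib than with rofecoxib. Control libraries ran from 53.8 to 74.8 CPM (median 63.5), celecoxib libraries from 58.2 to 86.2 (median 77.3) and rofecoxib libraries from 45.9 to 73.2 (median 59.5). All 3 groups overlapped. Of the 8 celecoxib libraries, 4 lay above the highest control, and celecoxib 1 and 2, at 59.0 and 58.2 CPM, lay below the control mean. Celecoxib against rofecoxib was 0.31 ± 0.10 on the log2 scale, 1.24-fold, with an adjusted p of 0.0235 in edgeR, at differing doses. Neither drug passed against control: celecoxib gave 0.23 ± 0.10, adjusted p 0.215, and rofecoxib −0.08 ± 0.10, adjusted p 0.615. The drug-to-drug call was lost on removal of celecoxib 5, celecoxib 8, rofecoxib 7 or rofecoxib 8 (values from 0.26 to 0.29), and after correction for GC content, where it was 0.12 with an adjusted p of 0.388.

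Mga (ENSMUSG00000033943, mm9 chr2:119722762-119795519), a very large protein that binds Max and serves in a variant Polycomb repressor complex, rose with rofecoxib. Control libraries ran from 45.9 to 57.1 CPM (median 50.5), celecoxib libraries from 48.5 to 64.4 (median 57.4) and rofecoxib libraries from 55.6 to 79.9 (median 60.5). Of the 8 rofecoxib libraries, 7 lay above the highest control, and rofecoxib 7 and 8, at 76.3 and 79.9 CPM, were well above the rest. Rofecoxib against control was 0.33 ± 0.07, 1.26-fold, with an adjusted p of 0.0182 in edgeR. Celecoxib against control was 0.16 ± 0.07, adjusted p 0.256, and celecoxib against rofecoxib −0.17 ± 0.07, adjusted p 0.101. With GC correction the rofecoxib value was 0.22 (adjusted p 0.0293) and that of celecoxib 0.20 (adjusted p 0.0458). The rofecoxib call was lost with the replicate block and GC correction together (0.22, adjusted p 0.0692), with the skeletal muscle score (0.36, adjusted p 0.0684) and with the GC slope as a covariate (0.13, adjusted p 0.254).

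**Figure D3:**
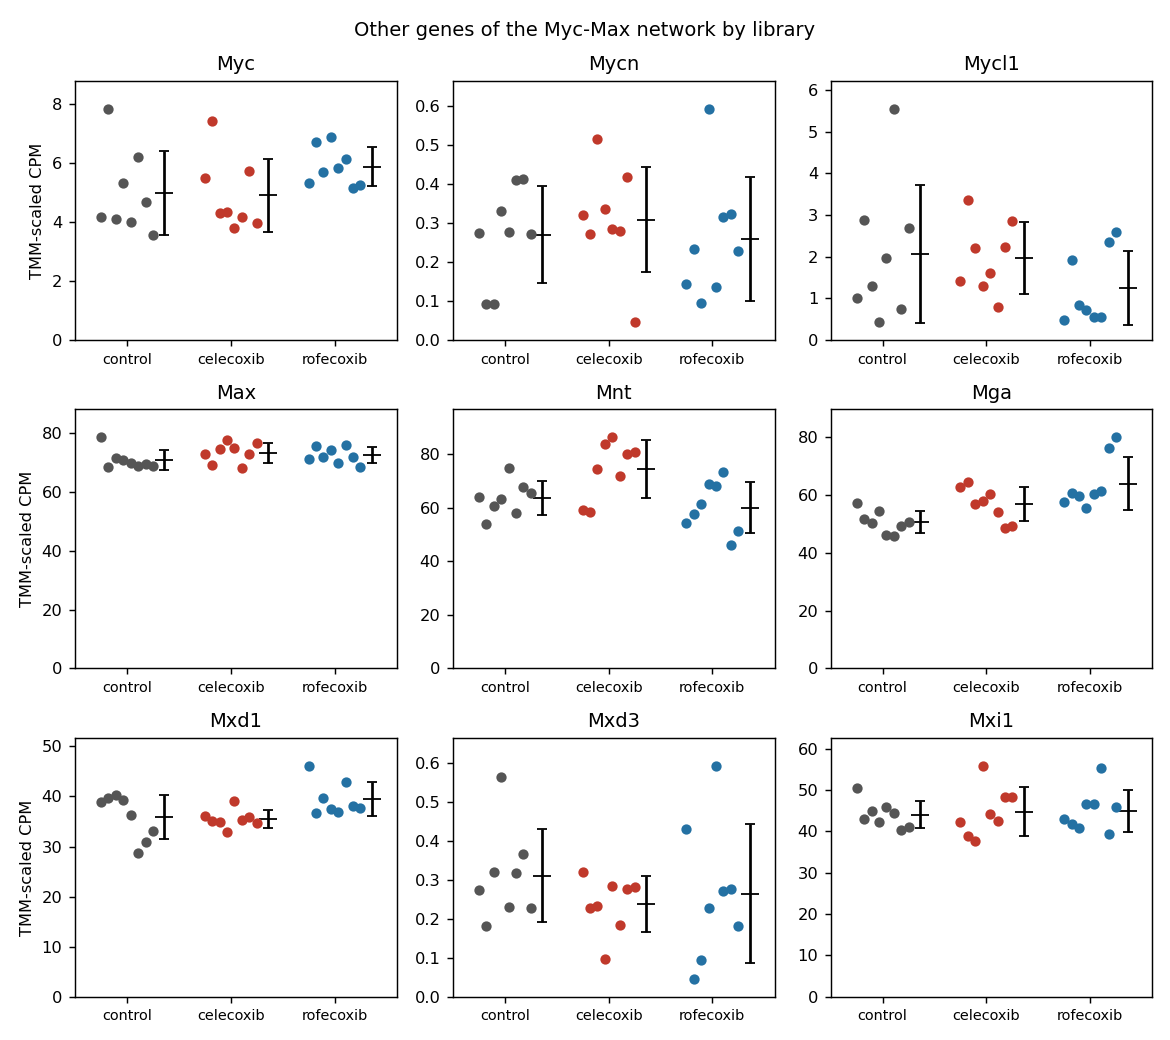
The 9 other network genes by library. Each point is 1 library in TMM-scaled CPM, with an axis from 0 in each panel and bars for mean ± SD of 8 libraries. Max is flat, Mga is highest in rofecoxib 7 and 8, and Myc, Mycn, Mycl1 and Mxd3 lie at or below 7.83 CPM.

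Mga and Mnt moved with the libraries' GC slope, the slope of each library's log2 CPM deviation on transcript GC content. Mga has GC-poor transcripts (42.2%) and Mnt GC-rich ones (59.5%), against a median of 50.3% over tested genes. The slope averaged 0.29 ± 0.89 in control, 0.79 ± 0.96 in celecoxib and −1.09 ± 0.97 in rofecoxib (SD, n = 8), and the lowest slopes, −2.80 and −2.27, were those of rofecoxib 8 and 7. Across 14075 genes, which are not independent replicates, Spearman's rho of the log2 fold change with GC content was 0.19 for celecoxib against control, −0.48 for rofecoxib against control and 0.55 for celecoxib against rofecoxib.

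After group means were subtracted, Mga followed the slope with r = −0.89 and rho = −0.86 over 24 libraries. The permutation p was 1e-05, the smallest that 100000 resamples can give, and 0.00104 adjusted over the 104 relations. For Mnt, r was 0.69 and rho 0.64, with permutation p of 0.00062 and 0.00148 and adjusted values of 0.0215 and 0.077. Without celecoxib 1 and rofecoxib 8, the libraries farthest out in slope, r was −0.86 for Mga and 0.62 for Mnt. The slope is fitted to the tested genes themselves, so genes far from the median in GC content tend to follow it. How many other genes did so as closely was not counted, so these relations are not read as particular to Mga and Mnt. Mxd4 gave r = 0.02 and rho = 0.13 (adjusted permutation p 0.968 and 0.938), although its transcript, at 55.6% GC, is also above the median. Inside control, celecoxib and rofecoxib its r was 0.26, 0.23 and −0.44, and with group differences left in it was 0.46. Adding the slope as a covariate, an alternative chosen after the data were seen, left Mga at 0.23 with celecoxib (adjusted p 0.00669). The same fit left Mnt at 0.03 between the drugs (adjusted p 0.907) and Mxd4 at 0.31, while the GC correction took Mxd4 between the drugs to 0.21. The GC correction itself lowered the within-group SD of log2 CPM from 0.15 to 0.09 for Mga and from 0.20 to 0.17 for Mnt, and raised it from 0.09 to 0.13 for Mxd4.

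**Figure D4:**
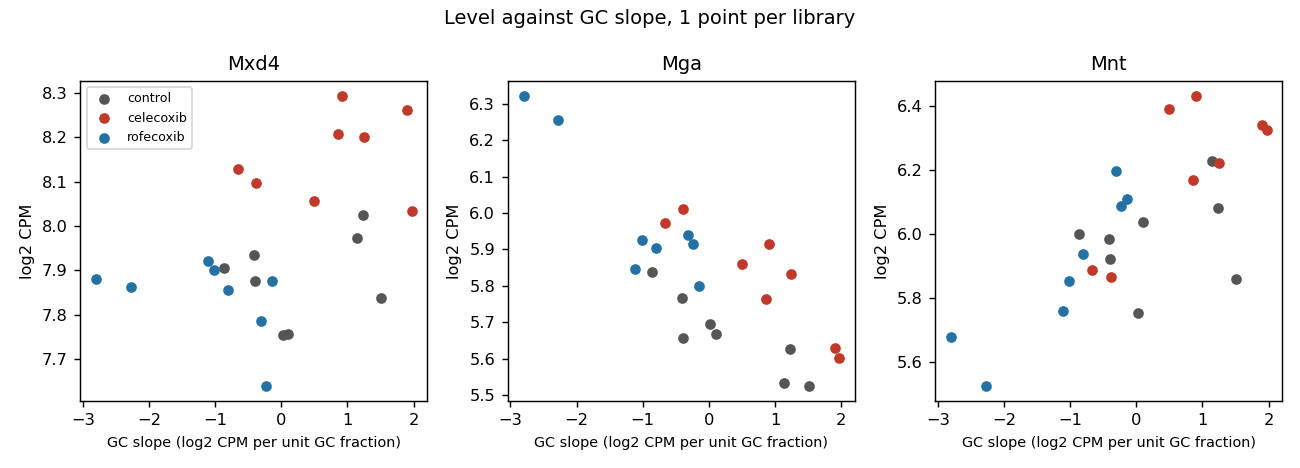
Log2 CPM of network genes against the GC slope of each library (log2 CPM per unit of GC fraction). Each point is 1 of 24 libraries, coloured by group. Mga falls as the slope rises (r = −0.89 after group means) and Mnt climbs with it (r = 0.69). Mxd4 gave r = 0.02 after group means, with r of 0.26, 0.23 and −0.44 inside control, celecoxib and rofecoxib.

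Levels can be compared between genes only per transcript length. In CPM per kilobase of the longest coding transcript, Mxd4 led with 61.1 ± 4.09 in control, followed by Max at 36.5 ± 1.73, Mnt at 13.8 ± 1.38, Mxi1 at 8.74 ± 0.63 and Mxd1 at 7.69 ± 0.95 (SD, n = 8). Mxi1 and Mxd1 differed by little more than 1 SD, and Mga followed at 3.64 ± 0.27, Myc at 2.13 ± 0.61 and Mycl1 at 0.590 ± 0.48. Mxd3 and Mycn closed the order at 0.234 and 0.101. Mxd4 made up 45.4% ± 1.64 of the network's summed CPM per kilobase in control, 48.8% ± 2.03 in celecoxib and 44.0% ± 2.14 in rofecoxib. Myc, Mycn and Mycl1 together made up 2.11% ± 0.76, 1.85% ± 0.53 and 2.20% ± 0.24. The ratio of Mxd4 to Max was 1.68 ± 0.12 in control, 1.96 ± 0.15 in celecoxib and 1.59 ± 0.10 in rofecoxib. These ratios hold Mxd4 and are given as description.

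Genes whose log2 CPM tracked Mxd4 most closely over the 24 libraries were Bcl2l1, which encodes the survival protein Bcl-xL (r = 0.95), Mthfd2, a mitochondrial folate enzyme (0.94), Cyb561, an electron-transporting membrane protein (0.88), Stc2, a secreted glycoprotein (0.88), and the kinase Map3k6 (0.87). Group differences enter these values. With group means subtracted, the order was Bcl2l1 (0.87), the Krüppel-like factor Klf15 (0.85), choline kinase Chka (0.80), Mthfd2 (0.79) and the hypoxia-inducible factor Hif3a (0.74). Bcl2l1 followed Mxd4 within each group, with r = 0.91 in control, 0.96 in celecoxib and 0.84 in rofecoxib. Klf15 did so with 0.70, 0.95 and 0.93. These are the highest of 14451 correlations and are descriptions with no p, and the libraries share their depth scaling.

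**Figure D5:**
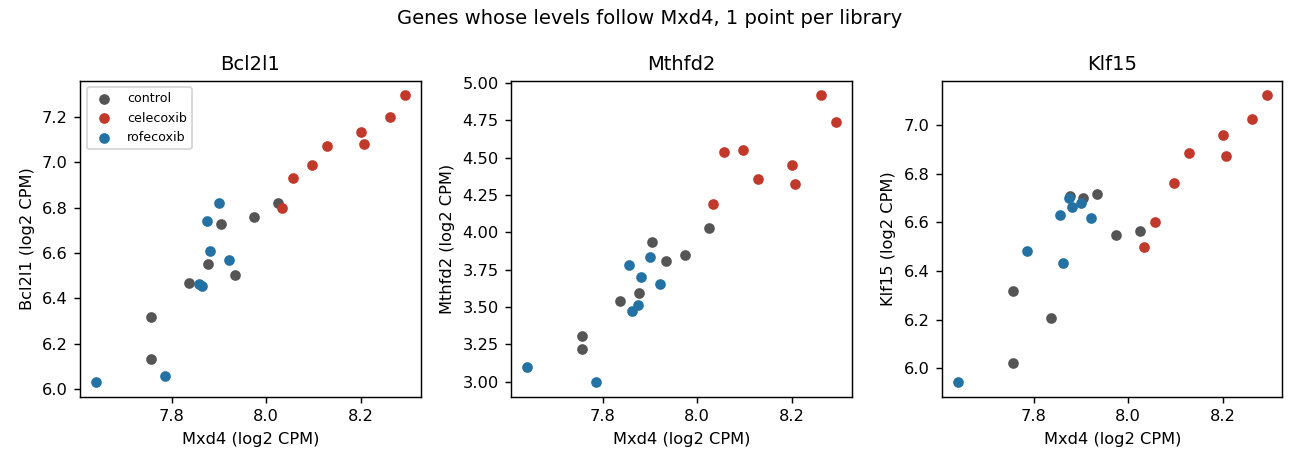
Log2 CPM of Bcl2l1, Mthfd2 and Klf15 against Mxd4. Each point is 1 of 24 libraries, coloured by group. All 3 genes climb with Mxd4 inside each group and have their highest group mean with celecoxib.

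The levels of these genes by group were as follows. Bcl2l1 read 93.7 ± 14.7 CPM in control, 134 ± 14.4 in celecoxib and 90.0 ± 17.2 in rofecoxib. Mthfd2 read 12.8 ± 2.53, 22.9 ± 3.87 and 11.5 ± 2.31 CPM. Klf15 read 90.0 ± 15.5, 116 ± 16.4 and 92.7 ± 14.1 CPM. Like Mxd4, these 3 had their highest group mean with celecoxib; for Bcl2l1 and Mthfd2, the choice by likeness over all 24 libraries favours that.

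Partner and target genes of the network, taken from lists made with earlier results of these data known, were read against the same shares of all genes. With celecoxib against control, no gene of the 9 lists other than the network was called in edgeR's main fit. Unadjusted p values under 0.05 were found for 9 of 53 tested genes that Myc raises and 2 of 17 cell cycle genes. They were also found for 2 of 8 genes that Myc represses, 2 of 9 other E-box factors and 1 of 5 Mlx branch genes. Of 9 Mga partners and 13 Myc turnover regulators 1 each had one, and of 13 coactivators 0, against 17.3% of all genes. With the GC slope as a covariate, 2 of the 53, 1 cell cycle gene and 1 E-box factor were called, all lower. Of all genes 354 were called in that fit, 153 of them lower. Without control 6 and rofecoxib 2, 1 of the 53 was called, lower. DESeq2 called 1 gene of these 9 lists, lower and in the cell cycle list, against 3.33% of all genes. The median log2 fold change was −0.04 for the genes that Myc raises and −0.11 for the cell cycle genes, against −0.01 for all genes. The nearest to the threshold among the 53 were Mcm5, a subunit of the replicative helicase, at −0.26 ± 0.08 (adjusted p 0.108), and Ccnd2, cyclin D2, at −0.24 ± 0.08 (adjusted p 0.110).

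With rofecoxib against control, 1 of these 53 genes rose and 3 fell, where 2.43% of all genes were higher and 2.87% lower. E2f1, an activator of S-phase genes, fell from 4.19 ± 0.366 to 2.88 ± 0.235 CPM, a log2 fold change of −0.54 ± 0.08 (adjusted p 0.00138 in edgeR). Cad, which starts pyrimidine synthesis, changed by −0.27 ± 0.07 (adjusted p 0.0319), and Tcof1, a nucleolar factor for ribosomal RNA synthesis, by −0.29 ± 0.08 (adjusted p 0.0383). Ppat, which starts purine synthesis, rose by 0.26 ± 0.07 (adjusted p 0.040). The list's median was −0.08, against 0.00 for all genes. With GC correction only E2f1 of the 4 stayed called, at −0.41 (adjusted p 0.0239). None of 17 tested cell cycle genes, 8 genes repressed by Myc, 13 Myc coactivators, 13 regulators of Myc turnover, 9 Mga partners or 5 genes of the Mlx branch was called in this comparison, where unadjusted p values under 0.05 numbered 0 to 2 per list (27.1% of all genes) and DESeq2 called 1 coactivator, 1 turnover regulator and 1 Mga partner (10.9% of all genes).

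The corepressors that Mxd proteins recruit through Sin3 were read next. Of 15 subunits of the Sin3 and NCoR complexes, 0 were called with celecoxib, by edgeR or DESeq2, and 0 had an unadjusted p under 0.05. With rofecoxib 2 rose and 1 fell, where 5.3% of all genes were called. Sin3a, the scaffold that Mxd proteins bind, rose by 0.17 ± 0.05 (adjusted p 0.0458), and Rbbp7, a histone-binding subunit, rose by 0.12 ± 0.03 (adjusted p 0.037). After GC correction 0 of the 15 were called, and these adjusted p were 0.248 and 0.673. Of 9 other tested E-box factors (Tfe3, Tfeb and Tfec were not analysed here), Srebf1, the regulator of fatty acid synthesis genes, was lower with rofecoxib, at −0.51 ± 0.11 (adjusted p 0.0147). It kept its call after GC correction at −0.37 (adjusted p 0.023). The GC-corrected celecoxib value against control went the same way, at −0.30, and narrowly missed the threshold (adjusted p 0.0519 in edgeR). With the GC slope as a covariate, 0 of the 9 E-box factors were called with rofecoxib, so the Srebf1 call was lost in that setting.

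Between the drugs, where 22.7% of all genes were called, the lists held 8 higher and 7 lower of the 53 genes that Myc raises, 2 higher and 4 lower of the 15 corepressor subunits, and 2 and 2 of the 13 coactivators. Ppat (−0.42 ± 0.07, adjusted p 0.00124), E2f1 (0.42 ± 0.08, adjusted p 0.00167), Bcat1, a branched-chain amino acid transaminase (0.62 ± 0.13, adjusted p 0.00363), and Srm, spermidine synthase (0.29 ± 0.06, adjusted p 0.00418), led the 53 by p. Ppat and Bcat1 stayed called after GC correction, at −0.31 and 0.69, and the other 13 did not. Hdac1, the deacetylase of the Sin3 complex, was lower with celecoxib than with rofecoxib, at −0.12 ± 0.03 (adjusted p 0.0085), and at −0.10 after GC correction its adjusted p was 0.0973. Single calls elsewhere were Usf2, Ring1 and Zbtb17, all higher with celecoxib, at 0.19, 0.27 and 0.17. After GC correction 0 corepressor subunits, coactivators, Myc turnover regulators or other E-box factors were called between the drugs. Of the 9 Mga partners, 1 was called higher in that setting. GC-corrected values against control were 0.03 with celecoxib and 0.04 with rofecoxib for Zbtb17, and −0.03 and −0.08 for Ring1.

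The Mlx branch is a parallel network in which Mlx, a Max-like partner, joins Mxd4, Mxd1 and Mnt as well as the glucose-sensing factors Mlxip and Mlxipl. Mlx was level at 27.2 ± 1.15, 27.3 ± 1.85 and 27.3 ± 2.11 CPM in control, celecoxib and rofecoxib. Mlxip read 147 ± 12.1, 167 ± 21.7 and 146 ± 10.6 CPM, with a celecoxib value against control of 0.18 ± 0.07 (adjusted p 0.199). Its targets Txnip and Arrdc4 gave 0.12 ± 0.14 and 0.29 ± 0.14 with celecoxib (adjusted p 0.684 and 0.289), and −0.15 ± 0.14 and 0.29 ± 0.14 with rofecoxib (adjusted p 0.516 and 0.185). Mlxipl read 42.7 ± 25.6 CPM in control, 34.7 ± 5.09 in celecoxib and 29.2 ± 6.91 in rofecoxib, with −0.30 ± 0.23 and −0.55 ± 0.23 against control (adjusted p 0.53 and 0.14).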

How the data were processed

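Polyadenylated RNA of 24 thoracic aortas was sequenced, 8 per group. Library construction took more than a day, per the labels, which do not say which library was made when. CASAVA 1.8.2, STAR 2.5.1b and build mm9 are named in the submitters' processing notes; which program counted reads, on what annotation and whether by strand, no source used here states. The deposited values are whole-number counts per gene, whose totals differed by only 0.164% between libraries (21652432 to 21687906), so the deposited totals do not tell the sequencing depth of a library; no source used here states the step that made them alike. No pair of libraries from the same group agreed within sampling noise, and pairs from different groups were not checked.

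Counts were filtered with filterByExpr, scaled by TMM factors (0.959 to 1.03) and tested with edgeR 4.0.16 (robust quasi-likelihood, 1 mean per group, 24 libraries, 21 residual degrees of freedom), with Benjamini-Hochberg adjustment over 14451 genes at 0.05. Per-length levels and GC content used the longest coding transcript of GENCODE M21, by gene identifier, for 97.4% of tested genes. GC correction used a smooth curve per library as an offset. The fit was also run on simulated counts, with larger changes than those of the called members and without a GC slope. That run does not bear on the calls given here. Alternatives were DESeq2 1.42.0, other scaling, no filter, 2 groups only, GC correction, a replicate block, marker scores as covariates and leaving out libraries. Correlations used 100000 permutations within groups.

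The network genes and all lists were chosen with earlier results of these data known. Named genes were the 10 members, up to 4 called genes of each other list per comparison by smallest p, and the 5 genes most like Mxd4 by each measure; 1 gene that this rule names is not reported here. Genes named beyond these (Mcm5, Ccnd2 and the Mlx branch) were chosen after their values were seen. Each mouse gave 1 library, so the p-values measure the spread between libraries, where mouse and library preparation cannot be told apart. They do not cover a difference in handling between the groups. Replicate numbers did not pair libraries: same-numbered libraries of different groups correlated in their deviations with r from −0.39 to 0.32 over 24 pairs.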

Additional observations from a re-analysis of the deposited data

Results flagged for a closer look

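Each of the 10 genes was checked in each group for a library that stood far from the other 7, and 3 of the 30 sets had one, where chance gives about 1 in 20. Max in control 1, at 78.7 CPM against 71.7 in the next library, was the highest control value, with a gap of 0.686 of the group's range. Mxi1 in rofecoxib 6, at 55.2 CPM against 46.7, had a gap of 0.538. Mycn in rofecoxib 4, at 0.593 CPM against 0.322, had a gap of 0.542 and rests on 13 counts.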

How the results depend on the processing

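Over 36 alternative settings no tested member that was called changed sign, and Mxd4 with rofecoxib lay between −0.07 and 0.04 and was never called. Genes called with celecoxib against control (204) numbered 86 without a filter, 88 with 2 groups only, 121 with GC correction, 103 with the replicate block and GC correction, 14 with the brown adipocyte score, 354 with the GC slope, 481 with DESeq2 and 0 with the skeletal muscle score in edgeR, where 1568 genes had an unadjusted p under 0.05. With rofecoxib against control (766) they numbered 294, 461, 67, 17, 286, 20 and 1575 in those first 7 settings, 18 with the skeletal muscle score and 215 without control 6 and rofecoxib 2. Between the drugs (3275) they numbered 857 with GC correction, 962 with block and correction and 6 with the GC slope. Members called against control fell to 0 with the skeletal muscle score, which left Mga with rofecoxib at 0.36 (adjusted p 0.0684), and with the replicate block and GC correction, which left it at 0.22 (adjusted p 0.0692). The GC slope gave 2 members with celecoxib and 0 with rofecoxib. With GC correction alone the 1 member called with celecoxib was Mga, not Mxd4. Between the drugs, members called fell to 0 in all 3 settings that use GC, and Mxd4 stood at 0.21 with GC correction, with or without the block. The cause of these changes was not tested. The replicate block alone gave 187 and 653 genes against control and Mga with rofecoxib at 0.33 (adjusted p 0.0389), and changed no call of a member; 5 of 24 libraries correlated best with their own number. Leaving out 1 library gave 42 to 312, 170 to 1121 and 2147 to 3739 genes and 1, 1 and 1 to 3 members in the 3 comparisons. The count with celecoxib moved by over 1.5 times without control 1, 2, 3, 4, 7 or 8, celecoxib 2, 3, 4, 5, 7 or 8, or rofecoxib 3, that with rofecoxib without control 5 to 8 or rofecoxib 1, 2, 7 or 8, and that between the drugs without rofecoxib 8. At 1 to 13 counts, Mycn and Mxd3 were not called without the filter either.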
